A study of Mus musculus with 20 samples.

Results

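The major histocompatibility complex (MHC) class II genes were examined in liver RNA from B6 (C57BL/6N) and C3 (C3H/HeN) mice. The set was chosen by gene symbol and holds 10 of the 25444 genes in the deposited tables: H2-Aa, H2-Ab1, H2-Eb1, H2-Ea-ps, H2-DMa, H2-DMb1, H2-Oa, H2-Ob, Cd74 and Ciita. Total RNA from the left lateral liver lobe of 20 mice was profiled by RNA-seq, with 5 B6 females, 5 B6 males, 5 C3 females and 5 C3 males, all 20 weeks old, untreated and without an engineered allele named in the labels. Each mouse gave 1 library, and the libraries were spread at random over 3 sequencing pools of 8, 5 and 7 libraries. Because the sexes were housed in different rooms, an effect of sex cannot be told apart from one of the room.

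MHC class II molecules are pairs of an alpha and a beta chain that show peptides from ingested material to CD4 T cells. They are made mainly by B cells, dendritic cells and macrophages, which in liver include the resident macrophages known as Kupffer cells. The chains are assembled on the invariant chain encoded by Cd74, H2-DM then loads the peptide, and H2-O holds H2-DM in check. Ciita encodes the coactivator that switches the genes on. It does not bind DNA itself but joins a complex of RFX, CREB and NF-Y proteins on conserved promoter elements named the X and Y boxes.

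In the mouse genome build mm9, 8 of the 10 genes lie on chromosome 17 within 252267 bases, from H2-Oa at chr17:34229324-34232179 to H2-Ea-ps at chr17:34479157-34481590. Between them lie H2-DMa (chr17:34259777-34276046), H2-DMb1 (chr17:34290136-34297174), H2-Ob (chr17:34375850-34382853), H2-Ab1 (chr17:34400172-34406363), H2-Aa (chr17:34419696-34424716) and H2-Eb1 (chr17:34442812-34453619). H2-Aa and H2-Ea-ps are on the minus strand and the other 6 on the plus strand. Ciita is at chr16:10480165-10527733 and Cd74 on chromosome 18. GENCODE vM1 annotates H2-Ea-ps as a pseudogene and the other 9 as protein-coding. The GENCODE start minus the deposited start was 12350 bases for H2-DMa, −13420 for H2-Aa and between −260 and 72 for the other 8.

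The strains differ in MHC haplotype. C57BL/6 carries the H2b haplotype, in which the E alpha gene is not transcribed, and C3H carries H2k, in which it is. The mm9 genome to which the authors aligned all read pairs was built from C57BL/6, and E alpha is listed there under the pseudogene symbol H2-Ea-ps. The class II chain genes are also among the most polymorphic mouse genes. How many C3 read pairs were lost through mismatches to mm9 was not tested.

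The promoter stretches around the X and Y boxes are shown because they carry the elements through which Ciita acts. RefSeq promoter windows, each of 250 bases before and 50 bases after an annotated start in GRCm38.p6, were found for 6 of the 10 genes: H2-Aa, H2-Eb1, H2-DMa, H2-DMb1, H2-Oa and H2-Ob. Each line below gives 65 bases, 5′ to 3′ on the strand of the gene, for the 5 of these with a Y box core within 100 bases of the start, and for H2-DMb2 and H2-Eb2, the nearest relatives of H2-DMb1 and H2-Eb1. Capitals mark the Y box core ATTGG, which reads CCAAT on the other strand, and the X box core AGCAAC.
H2-Aa (chr17:34287857-34287921, minus strand): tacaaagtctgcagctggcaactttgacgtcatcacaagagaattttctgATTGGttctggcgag
H2-Eb1 (chr17:34305758-34305822, plus strand): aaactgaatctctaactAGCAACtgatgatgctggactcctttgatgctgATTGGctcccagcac
H2-DMb1 (chr17:34153080-34153144, plus strand): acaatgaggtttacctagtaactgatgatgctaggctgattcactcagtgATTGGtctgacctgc
H2-Oa (chr17:34092286-34092350, plus strand): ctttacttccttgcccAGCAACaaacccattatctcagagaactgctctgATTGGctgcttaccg
H2-Ob (chr17:34238798-34238862, plus strand): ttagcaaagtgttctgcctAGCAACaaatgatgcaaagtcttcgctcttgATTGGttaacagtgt
H2-DMb2 (chr17:34145109-34145173, plus strand): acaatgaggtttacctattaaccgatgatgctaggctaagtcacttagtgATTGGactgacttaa
H2-Eb2 (chr17:34325525-34325589, plus strand): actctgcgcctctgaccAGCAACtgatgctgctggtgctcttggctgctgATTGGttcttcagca

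Of the 7 windows of these 6 genes, 6 held the Y box core on one strand or the other, against 37.4% of all 32851 windows in the table, and the exception was 1 of the 2 windows of H2-DMa. The X box core AGCAAC, or GTTGCT on the other strand, was in 3 of the 7, those of H2-Eb1, H2-Oa and H2-Ob, against 14.8% of all windows. In these 3 genes ATTGG began 33, 34 and 31 bases after the start of AGCAAC, and in H2-Eb2 33 bases after it. A search for this arrangement at 30 to 36 bases on the same strand, chosen after the windows had been read, found 14 of the 32851 windows (0.0426%), which belonged to 13 genes, 4 of them these class II genes. H2-DMb1 and H2-DMb2 had identical bases at 56 of 65 positions of the stretches above, and H2-Eb1 and H2-Eb2 at 43 of 65. Neither H2-DMb1 nor H2-Aa held the exact AGCAAC. These are matches of letters and not binding sites.

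**Figure D1:**
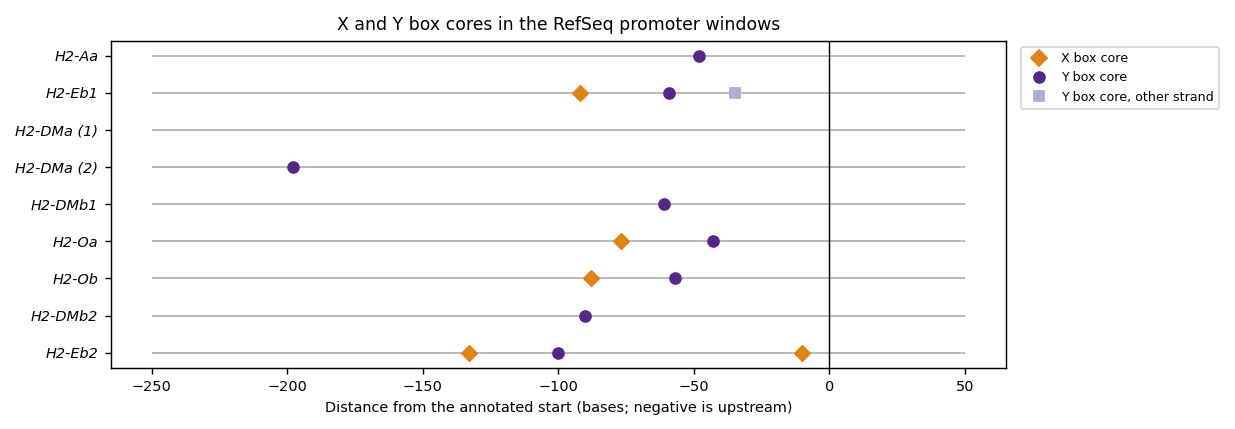
Positions of the X box core (diamonds), the Y box core (circles) and the Y box core on the other strand (square) in the 9 RefSeq promoter windows of 6 class II genes and 2 relatives, in bases from the annotated start; H2-DMa has 2 windows. In H2-Eb1, H2-Oa, H2-Ob and H2-Eb2 an X box core lies 31 to 34 bases upstream of the Y box core, and H2-Eb2 has a second X box core 10 bases before its start.

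Depth limited the least expressed of these genes. Levels of a gene across livers are given in CPM, the counts of a gene scaled to the size of its library. The libraries held 27370921 to 46835745 counts of read pairs, between 27370921 and 31280663 in pool 2, 33107889 and 36673533 in pool 1, and 38928480 and 46835745 in pool 3. Hepatocyte marker genes (Alb, Apoa1, Ttr, Tat and Cps1) summed to group means of 85402 to 142744 CPM. A library was taken to detect a gene from 3 counts, which correspond to 0.0590 to 0.116 CPM. Of the 10 class II genes, 9 passed the filter on low counts, as 13704 of all genes did, and H2-Oa did not. These are whole-tissue values, in which fewer cells of a type and less RNA per cell cannot be told apart.

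Compared per length, in TPM, which scales transcripts to the length of a gene and to the library, Cd74 was the most abundant class II gene in every group. In B6 females its mean level was 126 ± 49.5 TPM (SD, n = 5), followed by 71.8 ± 42.8 for H2-Ab1, 65.8 ± 29.3 for H2-Aa and 29.8 ± 13.5 for H2-Eb1. H2-DMb1 (6.74 ± 2.29 TPM) and H2-DMa (4.92 ± 1.61 TPM) came next, then Ciita (1.29 ± 0.551 TPM), H2-Ob (0.862 ± 0.212 TPM) and H2-Oa (0.548 ± 0.143 TPM). In this order the TPM ranges of neighbours over the 5 B6 females overlapped, except between H2-Eb1 and H2-DMb1 and between H2-DMa and Ciita. In C3 females the order of the mean TPM was Cd74 (51.5 ± 9.19), H2-Ab1 (25.9 ± 13.7), H2-Aa (19.2 ± 7.91), H2-Ea-ps (18.8 ± 4.55), H2-Eb1 (7.25 ± 2.52), H2-DMa (1.78 ± 0.455), H2-DMb1 (1.42 ± 0.396), Ciita (0.751 ± 0.0966), H2-Ob (0.612 ± 0.184) and H2-Oa (0.480 ± 0.371). H2-DMb1 thus stood above H2-DMa in B6 females and below it in C3 females, and in both groups the ranges of this pair overlapped. Within livers, H2-DMb1 was above H2-DMa in each B6 female. It was below H2-DMa in each C3 female except C3 female 3 (1.96 against 1.78 TPM).

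**Figure D2:**
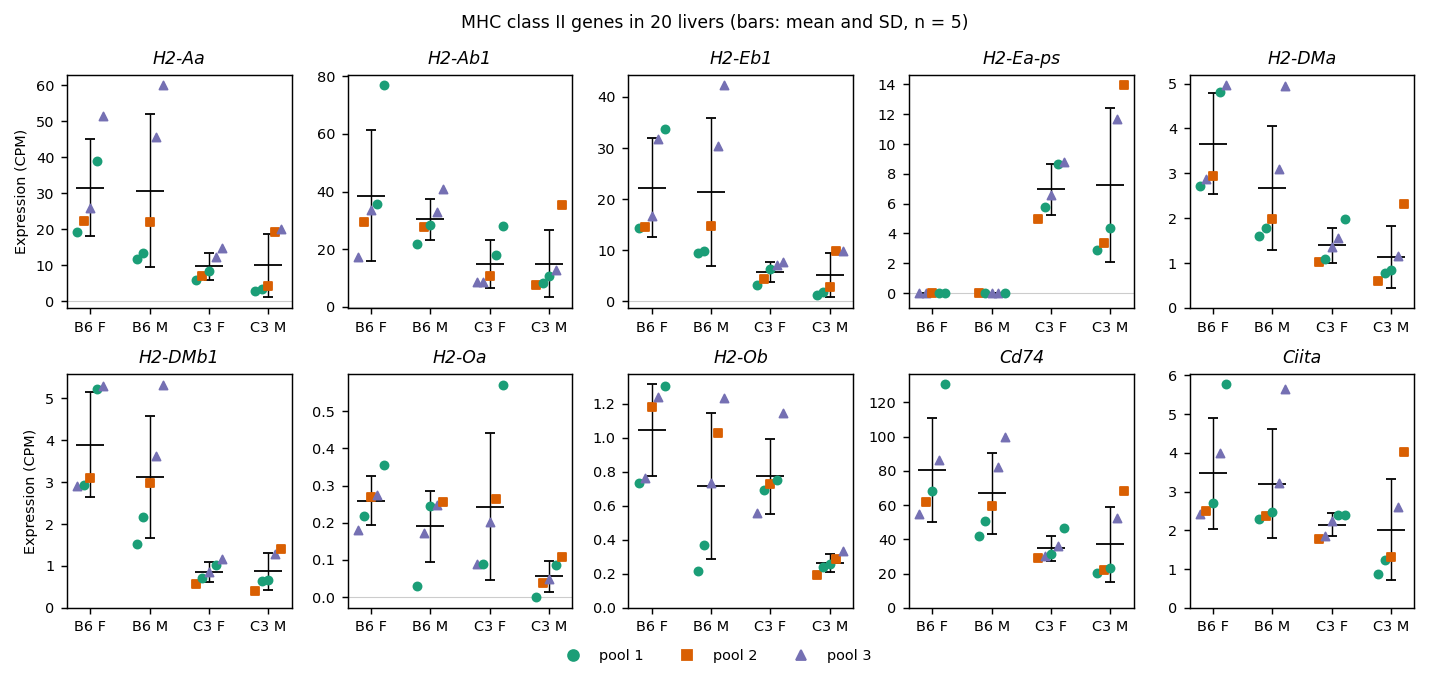
Expression in CPM of the 10 class II genes in each of 20 livers, by group and with the sequencing pool as colour and shape; bars are the mean and SD of 5 livers. H2-Ea-ps is at 0 in all 10 B6 livers and between 2.88 and 14.0 CPM in the C3 livers, and H2-DMb1 lies between 1.53 and 5.33 CPM in B6 and between 0.393 and 1.39 CPM in C3.

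Between strains, most class II genes had lower values in C3, and H2-Ea-ps was detected in C3 alone. At the threshold of the study (adjusted p under 0.001 and a log2 fold change over 0.5 in either direction, edgeR quasi-likelihood test), 2 of the 9 genes tested were called in females, where 9.40% of all genes were, and 2 in males, where 9.64% were. The 2 were H2-DMb1, which fell, and H2-Ea-ps, which rose, in both sexes. H2-Ea-ps had no count in any B6 liver and passed the filter on low counts only through C3. Its call is therefore no separate support, which leaves H2-DMb1 as the only call among the 8 other genes. At an adjusted p under 0.05 with the same fold, 6 of the 8 genes with a fold change were lower in C3 females (8.40% of all genes) and 5 of 8 lower in C3 males (10.3%). All 8 genes for which a fold change could be given had a log2 fold change below 0 in both sexes, with a median of −1.39 in females and −1.26 in males, against medians of 0.02 and 0.01 over all genes tested. The livers of the strains did not overlap for 7 of 9 genes in females (12.8% of all genes) and for 2 of 9 in males (15.1%). These include H2-Ea-ps in both sexes. Within each of the 3 pools the mean log2 CPM of each of the 8 genes was lower in C3, in all 48 combinations of gene, sex and pool. Each of these means rests on 1 or 2 livers, and the difference for Ciita in males of pool 2 was only −0.04. Most of these genes vary together from liver to liver, so the 48 combinations are not independent.

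The E alpha gene H2-Ea-ps had no read pair in any of the 10 B6 livers. The 5 C3 females had 4.99, 8.82, 6.61, 8.65 and 5.79 CPM, and the 5 C3 males 14.0, 2.88, 4.37, 11.7 and 3.39 CPM. The C3 values thus lay far above the detection limit in each liver, from 95 to 493 counts, and the males spread more widely than the females. Taking 3 counts per library for B6, the C3 females were at least 90.9-fold higher (adjusted p = 1.56e-05, edgeR) and the C3 males at least 85.0-fold higher (adjusted p = 2.01e-05, edgeR). Because this gene passed the filter on low counts only through C3, these p-values add no support beyond the counts themselves. The E beta gene H2-Eb1, whose product pairs with E alpha, was measured in both strains.

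The classical chain genes H2-Aa, H2-Ab1 and H2-Eb1 encode the alpha and beta chains of the A molecule and the beta chain of the E molecule. H2-Aa was at 51.4, 26.0, 22.2, 19.2 and 38.8 CPM in the B6 females and at 6.94, 14.7, 12.3, 8.35 and 5.88 CPM in the C3 females. The highest C3 female stayed below the lowest B6 female, and the log2 fold change was −1.82 ± 0.40 (SE, adjusted p = 0.00185, edgeR). In males H2-Aa was at 22.1, 13.5, 45.6, 60.0 and 11.8 CPM in B6 and at 19.1, 2.76, 3.45, 20.0 and 4.07 CPM in C3. Here the strains overlapped, and the log2 fold change was −1.44 ± 0.42 (SE, adjusted p = 0.0116, edgeR).

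H2-Eb1 had the lowest log2 fold changes of the 3 chain genes. It was at 31.8, 16.7, 14.6, 14.4 and 33.8 CPM in B6 females and at 4.40, 7.07, 7.73, 6.28 and 3.12 CPM in C3 females, with no overlap. Its log2 fold change was −2.07 ± 0.43 (SE), and its adjusted p of 0.00100295 (edgeR) lay just outside the threshold of 0.001. In males it was at 14.7, 9.91, 30.5, 42.3 and 9.54 CPM in B6 and at 9.79, 1.32, 1.86, 9.86 and 2.78 CPM in C3. The 2 highest C3 males lay within the range of the B6 males, and the log2 fold change was −1.88 ± 0.45 (SE, adjusted p = 0.00301, edgeR). H2-Ab1 differed less, with means of 38.6 ± 22.6 CPM in B6 females, 14.9 ± 8.42 in C3 females, 30.3 ± 7.04 in B6 males and 15.0 ± 11.7 in C3 males (SD, n = 5). Its livers overlapped between strains in both sexes, with log2 fold changes of −1.39 ± 0.43 in females (SE, adjusted p = 0.0177, edgeR) and −1.14 ± 0.45 in males (SE, adjusted p = 0.0593, edgeR).

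The H2-DM genes, whose product exchanges peptides on class II molecules, were both lower in C3, and H2-DMb1 most clearly so. H2-DMb1 was at 5.29, 2.92, 3.10, 2.93 and 5.23 CPM in B6 females and at 0.562, 0.842, 1.16, 1.02 and 0.721 CPM in C3 females. In males it was at 2.98, 2.17, 3.63, 5.33 and 1.53 CPM in B6 and at 1.39, 0.634, 0.659, 1.28 and 0.393 CPM in C3. The strains did not overlap in either sex. H2-DMb1 fell by 2.20 ± 0.30 on the log2 scale in females (SE, adjusted p = 1.67e-05, edgeR) and by 1.72 ± 0.32 in males (SE, adjusted p = 0.000345, edgeR). The call in males was lost, with an adjusted p between 0.00103 and 0.00208, when any 1 of B6 males 1 and 4 or C3 males 2, 3, 4 and 5 was left out. H2-DMa was at 3.66 ± 1.13 CPM in B6 females and 1.40 ± 0.389 in C3 females without overlap (log2 fold change −1.39 ± 0.32, SE, adjusted p = 0.00251, edgeR), and at 2.68 ± 1.39 and 1.14 ± 0.690 in B6 and C3 males (−1.15 ± 0.35, SE, adjusted p = 0.0171, edgeR).

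H2-DMb1 has a close paralog, H2-DMb2, which lies beside it at chr17:34282361-34288040 (mm9) and encodes another H2-DM beta chain. Read pairs that matched both genes equally were not counted, and an allele of one gene can resemble the other, so the division of counts between them is uncertain. H2-DMb2 was at 0.531, 0.241, 0.607, 0.298 and 0.490 CPM in B6 females and at 0.959, 0.953, 0.829, 0.631 and 1.08 CPM in C3 females, which did not overlap. Its log2 fold change of 1.07 ± 0.36 in females (SE, adjusted p = 0.0279, edgeR) had the opposite sign to that of H2-DMb1, and in males it was 0.27 ± 0.40 (SE, adjusted p = 0.642, edgeR). The ratio of H2-DMb1 to H2-DMb2 in TPM was 3.06 to 11.3 in the 10 B6 livers and 0.359 to 2.24 in the 10 C3 livers. The summed CPM of both genes was 4.33 ± 1.34 in B6 females, 1.75 ± 0.177 in C3 females, 3.53 ± 1.63 in B6 males and 1.36 ± 0.737 in C3 males. The sum was still lower in every C3 female (at most 1.99) than in every B6 female (at least 3.16), while in males the ranges overlapped.

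H2-Oa and H2-Ob, the chains of the H2-DM inhibitor, were expressed at low levels. H2-Ob was at 1.24, 0.764, 1.18, 1.30 and 0.735 CPM in B6 females and at 0.727, 0.554, 1.14, 0.691 and 0.751 CPM in C3 females, which overlapped (log2 fold change −0.43 ± 0.30, SE, adjusted p = 0.294, edgeR). In males it was at 1.03, 0.367, 0.735, 1.23 and 0.215 CPM in B6 and at 0.193, 0.259, 0.240, 0.333 and 0.286 CPM in C3. Its log2 fold change in males was −1.37 ± 0.38 (SE, adjusted p = 0.00862, edgeR), and the strains overlapped there too. H2-Oa, which was not tested, had 8 to 14 counts in B6 females, 1 to 10 in B6 males, 3 to 19 in C3 females and 0 to 3 in C3 males. C3 males 2 and 5 were just at the detection limit of 3 counts for H2-Oa, and the other C3 males were below it. H2-Eb2, a little-expressed relative of H2-Eb1, was also not tested, with 1 to 9 counts in the 10 B6 livers and 0 in 7 of the 10 C3 livers.

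The invariant chain gene Cd74 was at 86.6, 54.8, 62.0, 68.3 and 131 CPM in B6 females and at 29.3, 35.9, 30.01, 46.7 and 31.4 CPM in C3 females. No C3 female reached the lowest B6 female, and the log2 fold change was −1.23 ± 0.33 (SE, adjusted p = 0.00758, edgeR). In males Cd74 was at 59.6, 50.5, 82.1, 99.7 and 42.1 CPM in B6 and at 68.2, 20.2, 23.0, 52.2 and 21.9 CPM in C3. C3 males 1 and 4 stood within the B6 range and the other 3 below it, and the log2 fold change was −0.81 ± 0.34 (SE, adjusted p = 0.0720, edgeR). Ciita, the coactivator gene, was at 3.99, 2.41, 2.49, 2.71 and 5.77 CPM in B6 females and at 1.78, 2.24, 1.86, 2.40 and 2.40 CPM in C3 females, just without overlap. Its log2 fold changes of −0.71 ± 0.35 in females (SE, adjusted p = 0.131, edgeR) and −0.65 ± 0.37 in males (SE, adjusted p = 0.187, edgeR) did not pass either threshold. Cd74 and Ciita lie outside the MHC.

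The number of genes called depended on the libraries and test. In females DESeq2 called 5 genes, adding H2-Aa, H2-Eb1 and H2-DMa, and a fit of the 2 groups compared called 4. Leaving out C3 male 1 gave 5 called in females and 5 in males, and leaving out B6 female 2 gave 4 in females. H2-DMb1 in females and H2-Ea-ps in both sexes were called under each of the 30 settings run. The shares of all genes called under these settings are not given, so the class II counts cannot be set against a background.

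**Figure D3:**
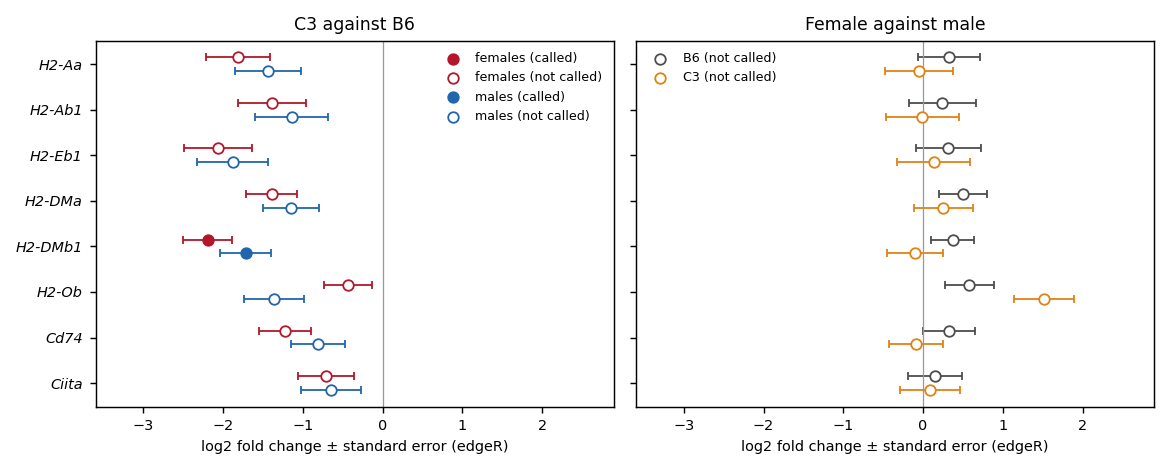
Log2 fold changes with standard errors (edgeR) of the 8 class II genes with a fold change, for C3 against B6 (left) and female against male (right); filled points passed the adjusted p of 0.001. All 16 strain values lie below 0, between −2.20 and −0.43, while the sex values lie between −0.10 and 1.51.

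Between the sexes, H2-Ob in C3 was the only class II gene past an adjusted p of 0.05. No class II gene was called for sex in B6 (edgeR), where 6.34% of all genes were, and none had an unadjusted p under 0.05; DESeq2 also called none. In C3 edgeR called none, where 6.90% of all genes were called, 1 gene (H2-Ob) had an unadjusted p under 0.05, and DESeq2 called 1, the same gene. H2-Ob was higher in every C3 female than in every C3 male, as were 7.38% of all genes, with a log2 fold change of 1.51 ± 0.37 (SE, adjusted p = 0.00410, edgeR). At an adjusted p under 0.05 and the fold threshold of 0.5 it was the 1 class II gene higher in C3 females, where 10.5% of all genes were. In B6 the female to male difference of H2-Ob was 0.58 ± 0.30 (SE, adjusted p = 0.148, edgeR). The difference between these sex effects, 0.93 ± 0.49 on the log2 scale, did not pass the test of interaction (adjusted p = 0.366, edgeR). The interaction called none of the genes by edgeR or DESeq2, where edgeR called 0.401% of all genes, and none had an unadjusted p under 0.05. For Cd74 the sex difference was 0.32 ± 0.33 in B6 and −0.09 ± 0.34 in C3 (log2, SE).

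To ask whether the genes fell by the same amount in C3, each was expressed as a log2 ratio to Cd74 in the same liver, and a two-sided exact permutation test over every split of 5 livers against 5 was used, which cannot give a p below 0.00794. Of 13 ratios tested, 3 were lower in C3 with an adjusted p of 0.0344 (exact permutation, Benjamini-Hochberg). They were H2-DMb1 in females (C3 minus B6 of −0.98) and males (−0.88) and H2-Eb1 in males (−1.31), and in each the strains did not overlap. The uncertain division of counts between H2-DMb1 and H2-DMb2 affects the first 2. The summed mean CPM of both genes was 4.33 in B6 and 1.75 in C3 females, beside 80.5 and 34.7 for Cd74. In males it was 3.53 and 1.36, beside 66.8 and 37.1. The ratio of this sum to Cd74 was not tested. H2-Eb1 in females was at −0.76 (exact permutation p = 0.0317, adjusted p = 0.103). H2-Aa was at −0.53 in females and −0.89 in males and did not pass (exact permutation, adjusted p = 0.245 and 0.186). H2-DMa differed from Cd74 by −0.20 in females and −0.28 in males, and H2-Ab1 by −0.20 and −0.28 (exact permutation, adjusted p from 0.264 to 0.576). H2-Ob and H2-Oa in females had values above 0, of 0.74 and 0.79 (exact permutation, adjusted p = 0.189 and 0.245), and H2-Ob in males was at −0.19 (exact permutation, adjusted p = 0.722). Within the pools the ratio of H2-DMb1 was lower in C3 in each, with differences from −1.35 to −0.87 for the females and from −1.35 to −0.38 for the males. With the sum of all other class II genes in place of Cd74, none of the 13 ratios passed, and the values of H2-DMb1 were then −0.82 and −0.57.

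Beyond strain and sex, the class II genes varied together from liver to liver within a group. The deviation of log2 CPM from the group mean was compared with that of Cd74 over the 20 livers, with 100000 permutations within groups. Pearson's r was 0.946 for Ciita, 0.896 for H2-DMa, 0.894 for H2-Eb1, 0.866 for H2-DMb1, 0.862 for H2-Aa and 0.814 for H2-Ab1, with Spearman's rho between 0.788 and 0.926. For H2-Ea-ps it was 0.969 over the 10 C3 livers (rho 0.964). Of the 8 relations computed, these 7 had permutation p between 1e-05, the smallest that the permutations can give, and 0.0006, with adjusted p from 5.33e-05 to 0.000686. The Spearman permutation p lay between 1e-05 and 0.00113. Without the 2 livers farthest from the median of Cd74, r for these 7 genes remained between 0.677 (H2-Ab1) and 0.919 (H2-Ea-ps). For H2-Ob, r was 0.216 (permutation p = 0.372) and rho 0.203 (permutation p = 0.400), and without those 2 livers r was 0.494. The sign of the deviation of Ciita matched that of Cd74 in 19 of 20 livers, and that of H2-Ob in 10 of 20. The 20 livers share 3 pools, and all values of a liver share its library.

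The levels of individual chain genes relative to each other differed between sequencing pools. The TPM ratio of H2-Aa to H2-Ab1 was 0.330 to 0.601 in the 8 livers of pool 1, 0.597 to 0.893 in the 5 livers of pool 2 and 1.54 to 1.91 in the 7 livers of pool 3. Pool 3 thus did not overlap with the others, in either strain or sex. In the edgeR fit H2-Aa was 1.38 higher on the log2 scale in pool 3 than in pool 1 and H2-Eb1 1.11 higher, while H2-Ab1 was at −0.47. The pool term passed an adjusted p of 0.05 for H2-Aa (0.00389, edgeR) and H2-Eb1 (0.0251, edgeR) and for no other class II gene, where it did so for 60.1% of all genes. The ratio of H2-Ea-ps to H2-Aa in C3 also moved, with means of 1.48, 1.04 and 0.783 in pools 1, 2 and 3, whereas that of Ciita to Cd74 had means of 0.0121, 0.0123 and 0.0122. Labels assign the libraries to pools and say no more of how the pools differed, and the origin of this shift was not tested.

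**Figure D4:**
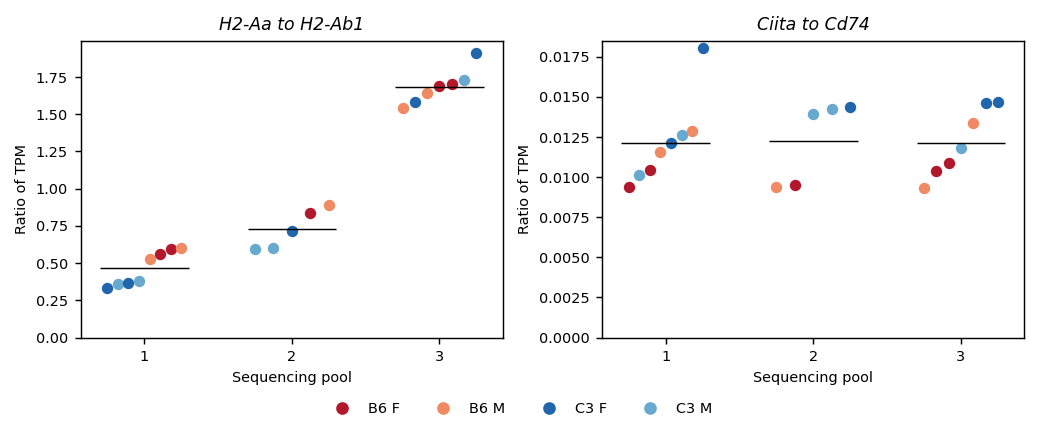
TPM ratio of H2-Aa to H2-Ab1 (left) and of Ciita to Cd74 (right) in each of 20 livers by sequencing pool, coloured by group; lines are pool means. The left ratio is 1.54 to 1.91 in pool 3 and at most 0.893 in pools 1 and 2, and the right ratio has a mean of 0.0121 to 0.0123 in each pool.

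With the pool effect also removed, the correlation with Cd74 was 0.989 for H2-Aa, 0.973 for H2-Ab1, 0.970 for H2-Eb1, 0.941 for Ciita and 0.110 for H2-Ob. The correlation between the partner chains H2-Aa and H2-Ab1, given as a description, was 0.432 with only the group removed and 0.956 with group and pool removed. The highest Cd74 level among the C3 males was 68.2 CPM in C3 male 1, where the other 4 had 20.2 to 52.2.

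**Figure D5:**
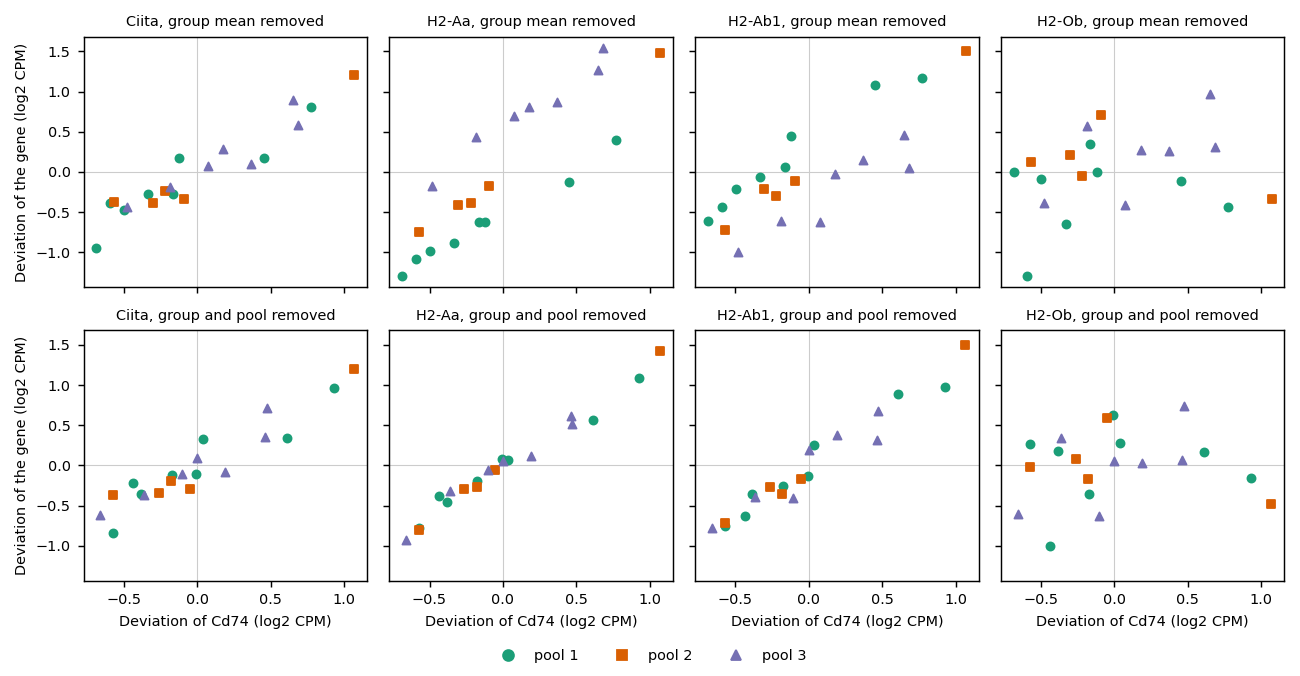
Deviation in log2 CPM of Ciita, H2-Aa, H2-Ab1 and H2-Ob against that of Cd74 in 20 livers, with the group mean removed (top) or group and pool removed (bottom); colour and shape give the pool. Removing pool tightens H2-Aa (r from 0.862 to 0.989) and H2-Ab1 (0.814 to 0.973), and r of H2-Ob is 0.216 and 0.110.

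The genes whose deviations were most like those of Cd74 and H2-Ab1 over the 20 livers were sought among the 13695 other genes tested. For Cd74 they were Ctss (r = 0.874), Tgtp2 (0.860), Gbp2b (0.855), Gbp4 (0.827) and Themis2 (0.822). For H2-Ab1 they included Gbp2b (0.878), Gbp5 (0.871), Vwa9 (0.843) and Batf2 (0.805). Ctss encodes cathepsin S, which degrades the invariant chain, and the Gbp genes and Tgtp2 encode interferon-induced GTPases. These likeness values are descriptions across livers that share pools.

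Among 14 tested regulators of class II transcription, 2 were called lower in C3 females and 1 in C3 males, and none higher, where 9.40% and 9.64% of all genes were called in either direction. The gene lower in both sexes was Rfxank, which encodes a subunit of the RFX complex. It was at 15.9 to 17.8 CPM in B6 females and 9.19 to 10.4 in C3 females (log2 fold change −0.80 ± 0.08, SE, adjusted p = 2.06e-07, edgeR), and at 14.8 to 19.1 and 8.99 to 11.3 in males (−0.75 ± 0.08, SE, adjusted p = 5.90e-07, edgeR). The other RFX subunit genes did not pass: Rfx5 was at 0.01 ± 0.13 in females and 0.12 ± 0.13 in males, and Rfxap at −0.09 ± 0.13 and 0.24 ± 0.14 (log2 fold change, SE). The second gene called in females was Spi1, which encodes the myeloid transcription factor PU.1 (−0.73 ± 0.14, SE, adjusted p = 0.000620, edgeR), and in males its log2 fold change was −0.69 ± 0.15 (SE, adjusted p = 0.00176, edgeR). The median log2 fold change of the 14 was −0.25 in females and −0.22 in males. For sex, Irf1 was called higher in B6 females (0.72 ± 0.13, SE, adjusted p = 0.000284, edgeR) and Irf4 in C3 females (1.45 ± 0.26, SE, adjusted p = 0.000324, edgeR), both interferon regulatory factor genes. This is 1 of the 14 in each strain, near the 6.34% in B6 and 6.90% in C3 of all genes called for sex.

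Of 13 genes of class II antigen processing and co-stimulation, Ctss and March8 were called lower in C3 in both sexes and none higher. These 2 of 13 stand beside the shares of all genes given above, and the median log2 fold change was −0.30 in females and −0.20 in males. Ctss was at 51.6 ± 7.24 CPM in B6 females and 28.7 ± 2.62 in C3 females, and at 36.5 ± 4.41 and 23.3 ± 5.46 in males. Its log2 fold changes were −0.85 ± 0.13 in females (SE, adjusted p = 4.15e-05, edgeR) and −0.65 ± 0.13 in males (SE, adjusted p = 0.000857, edgeR). March8, which encodes a ubiquitin ligase that removes class II and other proteins from the cell surface, had log2 fold changes of −0.51 ± 0.06 and −0.50 ± 0.06 (SE). No gene of this list was called for sex, but some passed the adjusted p of 0.001 with a fold under the threshold. In females against males these were March8 in B6 (−0.37) and C3 (−0.38), Ctsb in B6 (0.30) and Ctsl in C3 (0.38).

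Of 15 tested genes of the interferon gamma receptor and response, the pathway that induces Ciita, 1 was called lower in C3 females and none in males. It was Cxcl10, which encodes an interferon-induced chemokine (log2 fold change −1.26 ± 0.25, SE, adjusted p = 0.000620, edgeR), and in males its value was −1.12 ± 0.27 (SE, adjusted p = 0.00332, edgeR). At an adjusted p under 0.05 and the fold threshold of 0.5, females had 5 lower (8.40% of all genes) and males 5 lower (10.3%). In males 1 gene, Igtp, was higher (1.09 ± 0.26, SE, adjusted p = 0.00330, edgeR). Irgm1 in females (−0.44 ± 0.13, SE, adjusted p = 0.0109, edgeR) and Jak1 in males (0.15 ± 0.04, SE, adjusted p = 0.0121, edgeR) passed this p with smaller folds. At the threshold of the study, 9.40% of all genes in females and 9.64% in males were called in either direction. Gbp3 was called higher in females than males in B6 (1.45 ± 0.21, SE, adjusted p = 3.93e-05, edgeR) and in C3 (1.77 ± 0.22, SE, adjusted p = 7.09e-06, edgeR), and Gbp2 in C3 (1.46 ± 0.27, SE, adjusted p = 0.000520, edgeR). These are 1 of 15 in B6 and 2 of 15 in C3, where 6.34% and 6.90% of all genes were called for sex. Ifng itself was not tested, with at most 5 counts in a liver.

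The class II interval on chromosome 17 holds 8 other genes of the tables, of which 6 were tested. Tap2, which encodes a subunit of the transporter that supplies class I molecules with peptides, was called higher in C3 females (log2 fold change 0.52 ± 0.09, SE, adjusted p = 0.000104, edgeR) and C3 males (0.66 ± 0.09, SE, adjusted p = 1.08e-05, edgeR). The other 5, H2-DMb2, Brd2, Psmb8, Psmb9 and Tap1, were not called. Tap1, which encodes the partner subunit of Tap2, had log2 fold changes of −0.56 ± 0.17 in females (SE, adjusted p = 0.0173, edgeR) and −0.61 ± 0.18 in males (SE, adjusted p = 0.0120, edgeR). The median log2 fold change of the 6 was −0.06 in females and 0.03 in males.

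Markers of the cell types that make class II molecules were compared between the strains and sexes as well. Of all genes, 9.40% in females and 9.64% in males were called for strain in either direction. For sex, 6.34% in B6 and 6.90% in C3 were called. Of 10 tested Kupffer cell markers, 7 were called lower in C3 females (Clec4f, Vsig4, Csf1r, C1qa, C1qb, C1qc and Adgre1) and 4 in C3 males (Vsig4, Csf1r, C1qb and Adgre1), with median log2 fold changes of −0.79 and −0.55. Their summed level was 576 to 719 CPM in B6 females, 374 to 551 in C3 females, 365 to 547 in B6 males and 264 to 397 in C3 males. None of the 10 was at 0 in all livers of a group.

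Of 7 tested B cell markers none was called for strain, with median log2 fold changes of −0.58 in females and −1.63 in males. At an adjusted p under 0.05 and the fold threshold of 0.5, C3 females had 2 lower (8.40% of all genes) and C3 males 6 (10.3%). For sex, 2 were called higher in C3 females than C3 males, Fcer2a (3.11 ± 0.57, SE, adjusted p = 0.000462, edgeR) and Cd22 (1.16 ± 0.23, SE, adjusted p = 0.000959, edgeR). The summed B cell level was 4.72 to 8.62 CPM in B6 females and 2.91 to 7.31 in B6 males. It was 4.10 to 5.35 in C3 females and 1.44 to 2.02 in C3 males, which did not overlap. Of 7 tested markers of conventional dendritic cells, Flt3 and Itgax were called lower in C3 males (log2 fold changes −2.35 ± 0.47 and −1.93 ± 0.37, SE) and none in C3 females, with median log2 fold changes of −0.74 and −0.30. The list summed to 9.70 to 13.7 CPM in B6 females, 7.18 to 13.0 in B6 males, 8.17 to 12.0 in C3 females and 5.65 to 8.39 in C3 males. Of 6 monocyte markers, Lyz2 was called lower in C3 in both sexes, Ccr2 was called lower in C3 males, and S100a9 was called higher in C3 females than C3 males. At an adjusted p under 0.05 the list moved both ways in females, with 2 genes lower in C3 and S100a9 higher (1.09 ± 0.28, SE, adjusted p = 0.00549, edgeR), and in males 4 were lower and none higher. They summed to 61.0 to 129 CPM in B6 females and 44.8 to 75.2 in B6 males. In C3 the sums were 36.9 to 82.5 in females and 23.7 to 30.3 in males, also without overlap. The mean sums of the Kupffer cell, B cell, dendritic cell and monocyte lists were lowest in C3 males. So were those of the stellate cell, regulator and interferon gamma lists. Among class II genes, the mean CPM of H2-Eb1, H2-DMa, H2-Oa, H2-Ob and Ciita was lowest there too. That of H2-Aa, H2-Ab1, H2-DMb1 and Cd74 was lowest in C3 females. The part of these cell types in the class II differences was not tested.

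Markers of other liver cells were compared in the same way. For strain, Lyve1 was called lower in C3 females among 5 sinusoidal endothelial markers, Sox9 higher in C3 females among 4 cholangiocyte markers, and Apoa1 higher in C3 of both sexes among 5 hepatocyte markers. The other 3 cholangiocyte markers had log2 fold changes from −0.12 to −0.01 in females. The median log2 fold changes in females and males were −0.01 and −0.38 for cholangiocyte markers and −0.03 and 0.001 for sinusoidal endothelial markers. For hepatocyte markers they were 0.23 and 0.23. None of 4 stellate cell markers and none of 4 tested T cell markers was called for strain (edgeR). The stellate medians were −0.38 in females and −0.24 in males, with all 4 log2 fold changes below 0 in both. The T cell medians were −0.56 and −1.26. With an adjusted p under 0.05 and the fold threshold of 0.5, 1 stellate cell marker (Lrat) was lower in C3 in each sex. Reln and Colec11 also had an adjusted p under 0.05 in both sexes, with smaller log2 fold changes. These were −0.41 and −0.34 in females (adjusted p = 2.12e-05 and 0.000396, edgeR) and −0.19 and −0.25 in males (adjusted p = 0.0166 and 0.00598, edgeR). At that p and fold, 1 T cell marker was lower in C3 females, and 3 were lower and 1 higher in C3 males. Cd4, which encodes the T cell co-receptor for class II molecules, was called lower in females than males in B6 (log2 fold change −1.995 ± 0.188, SE, adjusted p = 2.46e-07, edgeR) and C3 (−2.56 ± 0.19, SE, adjusted p = 1.17e-08, edgeR). The other 3 T cell markers, Cd3e, Cd3g and Cd2, had female to male log2 fold changes above 0 in both strains, between 0.40 and 1.51, and were not called.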

How the data were processed

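RNA-seq of liver from 20 mice was analysed. The counts that the authors deposited are read pairs on each gene, unnormalized, made from strand-specific, ribosomal RNA-depleted libraries with Cutadapt 1.9.1, alignment to mm9 by STAR 2.5.1b and featureCounts (Subread 1.5.0-p1) on RefSeq genes, without multimapping or multi-overlapping reads. The authors also deposited TPM values, used here for levels between genes. The headers of the symbol and identifier columns are exchanged, and columns were read by content.

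Counts were fitted in R 4.3.3 with edgeR 4.0.16 (filterByExpr, TMM, quasi-likelihood, group and pool terms, 20 libraries), with Benjamini-Hochberg adjustment over 13704 genes. Standard errors of log2 fold changes were derived as the absolute fold change over the square root of the quasi-likelihood F statistic. Log2 CPM used a prior count of 2 and ratios a pseudocount of 0.5. Folds against 0 used 3 counts per library, which covers counting error only. Named list genes were those called, at most 4 per list by p, and others were named after their values were seen. Of the genes most like H2-Ab1, 1 is not reported here. The genes and lists were chosen with earlier results of these data known. DESeq2 1.42.0, limma 3.58.1 on log2 TPM, other normalizations, filters and thresholds were alternatives. The fit was tested on simulated data. Replicates differed by more than sampling noise (chi-square per degree of freedom 20.0 to 187).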

Additional observations from a re-analysis of the deposited data

Results flagged for a closer look

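Of 38 combinations of class II gene and group with varying values, 2 held a liver whose gap to the nearest other exceeded the Dixon limit of 0.71 of the range of the group, and chance flags about 1 in 20. H2-Ab1 was at 35.5 CPM in C3 male 1, sequenced in pool 2, where the next C3 male was at 12.9. Ciita was at 5.65 CPM in B6 male 4, sequenced in pool 3, where the next B6 male was at 3.23.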

How the results depend on the processing

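The number of class II genes called for strain in females, 2 as reported, was 5 with DESeq2, 4 with only the groups compared and 7 at an adjusted p under 0.05, and 2 to 5 with 1 liver left out. In males, 2 as reported, it was 6 at an adjusted p under 0.05 and 1 to 5 with 1 liver left out. For sex in C3 it was 1 with DESeq2 and 1 at an adjusted p under 0.05, and otherwise 0. These counts stand without the shares of all genes called under the same settings and are no result about the class II genes. The count of ratios to Cd74 that passed, 3 as reported, was 0 with the sum of the other genes as reference, 6 with the pool mean removed (added after the data were seen) and 0 to 4 with 1 liver left out, where the smallest p of 4 livers against 5 is 0.0159. The replicate block gave 2 and 2 genes for strain, 0 for sex and interaction, and 0 ratios, whose smallest p under this pairing is 0.0625. Of 5 same-numbered pairs, 3, 3, 1 and 0 had correlated deviations (r over 0.1) for strain in females and males and sex in B6 and C3 (mean r 0.218, 0.181, −0.186 and −0.240, and 0.0640, 0.0105, 0.0997 and −0.0132 with pool removed), and at most 3 of 5 correlated best with their own number. Not every pair exceeded 0.1, so the livers were taken to share only a number. The ratio of H2-Ob in males ranged from −0.39 to 0.17 with 1 liver left out, reversing without B6 male 1 or C3 male 1, and was 0.127 with the summed reference, which also reversed H2-Ab1 (0.0523) and H2-DMa (0.0329) in males. The causes were not tested.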
